A study of Mus musculus with 18 samples.

Results

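The chemokine ligand family was taken as all probe sets whose platform symbol begins with Ccl or Cxcl followed by a number, or with Cx3cl or Xcl. This gave 55 of 45037 probe sets. Of these, 51 carried 1 symbol and stood for 33 of 18193 named genes, and 4 were annotated to several near-identical copies. RNA came from female C57Bl6xCBA F1 mice that were 7 weeks old when treatment began. Transgenic (TG) mice carried K14NICDER and wild-type (WT) mice did not, and both genotypes received 4OHT (4-hydroxytamoxifen) for 14 days, so the drug is shared by every group. Dermis, epidermis and whole skin of each genotype were hybridised to 3 Affymetrix arrays per group, 18 in all. In K14NICDER the keratin 14 promoter places the Notch intracellular domain, fused to an estrogen receptor domain that responds to 4OHT, in basal keratinocytes of the epidermis and hair follicle.

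Chemokines are small secreted proteins that bind G-protein-coupled receptors on leukocytes and draw them along a gradient. In skin, keratinocytes release ligands for neutrophils, T cells and dendritic cells, whereas fibroblasts, vessels and macrophages supply ligands for monocytes, eosinophils and lymphocytes. Several inflammatory chemokine genes carry NF-kappa-B sites close to the start of transcription, and RBPJ is the DNA-binding partner of the Notch intracellular domain.

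Promoters of 5 members are printed because their signals showed large genotype differences or, for Cxcl3, a large layer difference, and they were chosen after the values were seen. Each runs from 130 bases before the RefSeq start site to 20 bases from it, 5′ to 3′ on the gene's strand of GRCm38.p6, with capitals marking matches to GGNNTTTCC, an NF-kappa-B motif, or TGGGAA, the RBPJ core motif, on either strand.
Cxcl1, chr5:90891115-90891264, + strand: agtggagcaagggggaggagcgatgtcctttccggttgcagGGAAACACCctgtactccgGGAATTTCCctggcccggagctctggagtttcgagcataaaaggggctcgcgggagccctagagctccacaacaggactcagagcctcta
Cxcl2, chr5:90903769-90903918, + strand: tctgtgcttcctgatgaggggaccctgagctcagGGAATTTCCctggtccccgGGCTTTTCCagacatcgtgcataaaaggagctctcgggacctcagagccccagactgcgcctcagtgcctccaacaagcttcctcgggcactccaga
Cxcl3, chr5:90785971-90786120, + strand: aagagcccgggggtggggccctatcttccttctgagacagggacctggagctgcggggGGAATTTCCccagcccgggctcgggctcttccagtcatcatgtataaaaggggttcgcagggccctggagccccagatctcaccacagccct
Ccl20, chr1:83116636-83116785, + strand: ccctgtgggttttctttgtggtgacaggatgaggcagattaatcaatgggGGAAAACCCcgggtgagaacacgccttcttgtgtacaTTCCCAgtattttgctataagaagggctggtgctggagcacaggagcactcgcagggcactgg
Ccl1, chr11:82179793-82179942, - strand: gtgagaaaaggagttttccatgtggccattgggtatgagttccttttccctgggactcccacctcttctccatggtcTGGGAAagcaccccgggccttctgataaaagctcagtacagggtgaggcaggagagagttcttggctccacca

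The neutrophil ligand promoters of Cxcl1 and Cxcl2 each held 2 NF-kappa-B matches in these windows, Cxcl3 held 1, and Ccl20 held 1 beside an RBPJ match. The Ccl1 window held an RBPJ match alone. Over the whole 300-base promoters, 23 of the 33 genes matched 26 RefSeq promoters. GGNNTTTCC occurred in 26.9% of the 26, against 5.8% of all 32851 promoters, and TGGGAA in 30.8% against 25.6%. The motifs overlapped each other in none of the 5 printed windows. A match describes letters and does not show that a factor binds.

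Signals are the deposited values on the log2 scale, where 1 unit is a 2-fold difference, and they are compared within a probe set only. Replicate arrays of whole skin correlated at 0.96 to 0.97 on average, WT dermis at 0.93 to 0.94, TG epidermis at 0.93 to 0.94, WT epidermis at 0.88 to 0.90 and TG dermis at 0.85 to 0.89, so TG dermis was the least uniform group. The median within-group SD was 0.18 in whole skin and 0.41 in each separated layer. The labels do not say that arrays of a group came from separate animals, so p-values measure only the spread between these samples. Heyl, a Notch target gene, rose in TG whole skin (log2 difference 2.40 ± 0.13 SE, limma adjusted p = 0.000241). Marker genes were set against the layer labels, and 8 of 10 fibroblast markers and 7 of 10 endothelial markers were higher in WT dermis, and 4 of 9 keratinocyte markers were lower there. Krt14 still read 11.46, 11.51 and 11.39 in WT dermis, against 13.03, 12.04 and 12.70 in WT epidermis, so the dermis arrays held keratinocyte RNA. The fibroblast marker Col1a1 read 11.04, 11.09 and 10.76 in WT epidermis, against 12.27, 12.09 and 11.59 in WT dermis. The epidermis arrays therefore held fibroblast RNA. In bulk tissue, fewer cells of a type and less RNA per cell cannot be told apart.

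Of the 33 genes, 23 passed the filter on low signal and were tested, and 10 did not (Ccl1, Ccl3, Ccl4, Ccl7, Cx3cl1, Cxcl2, Cxcl3, Cxcl5, Cxcl11 and Cxcl15). A gene is called where limma's Benjamini-Hochberg adjusted p over 13739 genes is under 0.05. Between the layers of WT skin, 5 of the 23 were higher in dermis, where 12.6% of all genes were, and 0 were lower, where 6.07% were. In epidermis, 1 was higher in TG and 1 lower, against 1.56% and 1.09% of all genes. In dermis, 0 were called, against 0.0946% of all genes higher and 0.0218% lower. At an unadjusted p under 0.05 there were 5 members in dermis, where 5.29% of all genes reached it. In whole skin 4 were higher and 1 was lower in TG, against 1.71% and 1.08%.

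Separation of the arrays was counted beside the calls. The 3 arrays of one group all lay to the same side of the 3 of the other for 8 members between WT layers, 11 between epidermis groups, 4 between dermis groups and 8 between whole-skin groups, out of 23. These counts include called members, and those apart without a call numbered 3 between WT layers, 9 for epidermis, 4 for dermis and 3 for whole skin. As a share of the 23 they were 34.8% between WT layers, and between genotypes 47.8% for epidermis, 17.4% for dermis and 34.8% for whole skin. Over all genes that share was 40.0% between WT layers, and between genotypes 23.0% for epidermis, 9.24% for dermis and 24.3% for whole skin. On the log2 scale the median member lay 0.35 higher in TG epidermis, 0.44 in TG dermis and 0.45 in TG whole skin, where the median gene differed by -0.10, -0.05 and -0.01. Between WT layers the median member differed by 0.00019 and the median gene by 0.05.

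**Figure D1:**
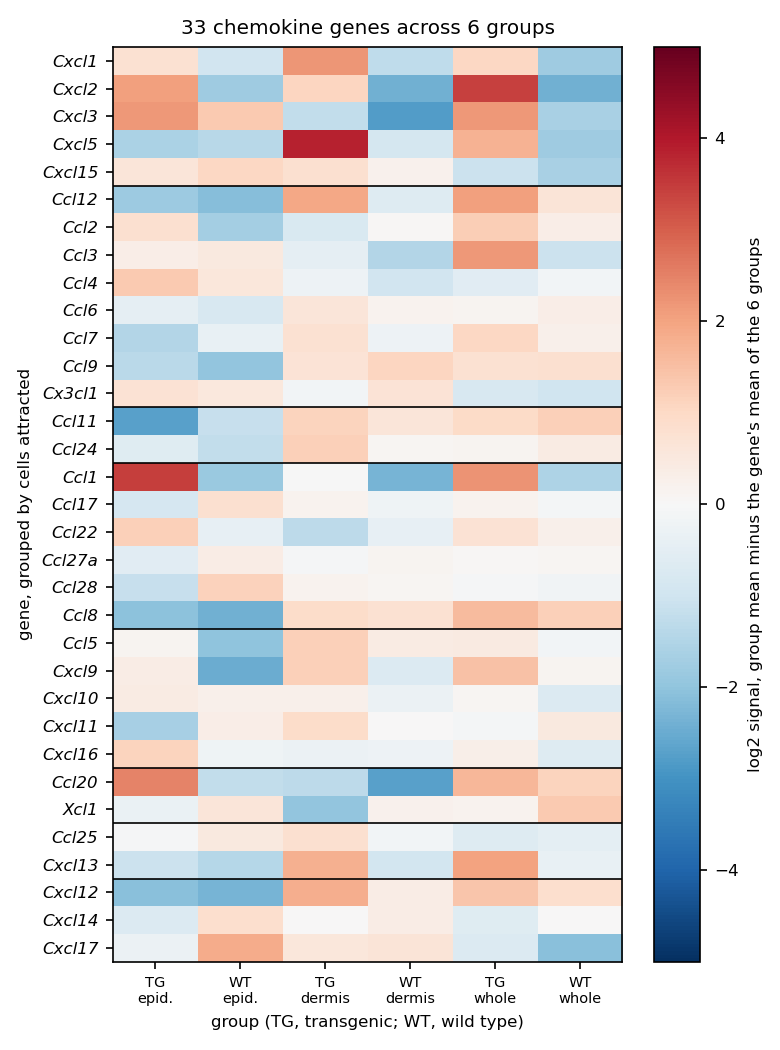
Log2 signal of the 33 chemokine genes (rows, grouped by the cells they attract) in 6 groups (columns), as the mean of 3 arrays minus the gene's own mean over the groups. Cxcl5 stands out in TG dermis, Ccl1 and Ccl20 in TG epidermis, and Cxcl2 in TG whole skin.

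Of 5 listed ligands for neutrophils, Cxcl1 alone passed the filter, and it was called in whole skin and in neither separated layer. Cxcl1, Cxcl2, Cxcl3 and Cxcl5 act through Cxcr2. Cxcl1 was at 9.05, 8.05 and 6.72 in TG whole skin, against 6.17, 4.80 and 4.46 in WT whole skin. All 3 TG arrays lay above all 3 WT arrays, and Cxcl1 rose by 2.80 ± 0.59 (SE, adjusted p = 0.047). In dermis its arrays were at 7.06, 10.37 and 9.95 in TG and 6.39, 5.86 and 4.69 in WT. The groups did not overlap and the difference of 3.48 ± 0.70 was not called (adjusted p = 0.111). Without TG dermis replicate 1, the lowest of the TG dermis arrays, it was 4.52 with adjusted p = 0.00229. Leaving out the lowest TG array must widen the difference, and only this 1 of the 6 arrays left out in turn gave a call. In epidermis Cxcl1 was at 7.31, 8.21 and 7.46 in TG, against 6.69, 5.69 and 5.49 in WT, again with no overlap (1.70 ± 0.70, adjusted p = 0.240). The other probe sets of Cxcl1 differed by 2.37 (adjusted p = 0.074) and 2.74 (adjusted p = 0.125) in whole skin in a fit of every probe set. In dermis they differed by 3.22 and 3.06 (adjusted p = 0.131 and 0.207). In epidermis the dimmer one overlapped, at 4.38, 6.24 and 5.22 in TG and 5.42, 4.45 and 5.01 in WT (0.32, adjusted p = 0.837). The brighter one lay apart there (1.19, adjusted p = 0.452). The whole-skin call of Cxcl1 was lost without any one of TG replicates 1 and 2 and WT replicates 1, 2 and 3 (adjusted p 0.066 to 0.140).

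Cxcl2, a close relative of Cxcl1, was below the filter over the 18 arrays, so its values come from the fit without a filter on 18193 genes. It read 8.07, 7.25 and 3.90 in TG whole skin, against 2.11, 1.03 and -1.42 in WT whole skin. Every TG array lay above every WT array, and it rose by 5.83 ± 1.15 (adjusted p = 0.042), where 1.08% of all genes rose in that fit. With 16 added on the linear scale, which damps differences between low signals, the difference was 2.65 and the call was lost (adjusted p = 0.136). It was also lost without any one of TG replicates 1 and 2 and WT replicates 1, 2 and 3 (adjusted p 0.083 to 0.161). In epidermis its arrays were at 6.42, 5.54 and 3.15 in TG and -0.16, 1.35 and 2.45 in WT (3.83 ± 1.08, adjusted p = 0.095). In dermis they were at 3.0, 4.47 and 4.74 in TG and 0.59, -1.28 and 2.40 in WT (3.5 ± 1.08, adjusted p = 0.628). In both layers the groups did not overlap.

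Cxcl5 and Cxcl3, further Cxcr2 ligands, were also below the filter, and both were named after their values were seen. Cxcl5 was at 3.32, 6.22 and 6.20 in TG dermis, against -1.08, 1.31 and 1.24 in WT dermis, with no overlap (4.75 ± 1.16, adjusted p = 0.270 without a filter). In epidermis it stayed between -1.21 and 1.17 in TG and between -1.76 and 1.64 in WT. Cxcl15, a lung-enriched mouse ligand listed with them, was below the filter, averaged 3.02 ± 0.40 in TG epidermis and 3.44 ± 1.03 in WT epidermis (SD, n = 3 each), and was not called in any comparison. Cxcl3 was the one family member called higher in WT epidermis than in WT dermis, and only without the filter. It was at -1.80, -2.33 and -1.67 in WT dermis and 3.38, 0.79 and 2.30 in WT epidermis. Its dermal signal lay below the epidermal one (-4.09 ± 0.99, adjusted p = 0.013), and 4.30% of all genes were lower in dermis in the fit without a filter. With 16 added the difference was -0.40 (adjusted p = 0.082), and the call was also lost without WT epidermis replicate 1 (adjusted p = 0.066). In whole skin Cxcl3 was at 4.92, 2.96 and 1.15 in TG and 0.98, -2.14 and -1.09 in WT. The groups did not overlap, and the difference was not called (3.76 ± 1.12, adjusted p = 0.153 without a filter).

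Neutrophil markers were read beside these ligands. Of 8 listed markers on the arrays, 3 passed the filter. Stfa2l1, a stefin expressed in neutrophils, was called in TG epidermis (2.96, adjusted p = 0.030) and TG whole skin (2.61, adjusted p = 0.044). It was also called between WT layers, lower in dermis than in epidermis (-2.40, adjusted p = 0.022). The summed signal of the 8 genes ran from 8.24 to 8.61 in TG epidermis and 6.38 to 8.10 in WT epidermis on the log2 scale. It ran from 6.58 to 7.26 in TG dermis and 4.95 to 5.73 in WT dermis, and from 7.63 to 8.35 in TG whole skin and 5.22 to 6.36 in WT whole skin. These ranges did not overlap in any of the 3 tissues, but the separation in the layers was that of Stfa2l1, the one marker of the 8 whose groups lay apart there, with Csf3r beside it in whole skin. Without Stfa2l1 the sum ran from 6.47 to 6.77 in TG epidermis and 5.63 to 7.88 in WT epidermis, and from 5.49 to 7.15 in TG dermis and 4.71 to 5.62 in WT dermis, with overlap in both. In whole skin it ran from 5.75 to 7.23 in TG and 4.82 to 5.67 in WT, without overlap. The part of these markers in the ligand differences was not tested. Ltf, a granule protein of mature neutrophils, reached no more than 2.99 in any TG array and 4.45 in WT epidermis.

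**Figure D2:**
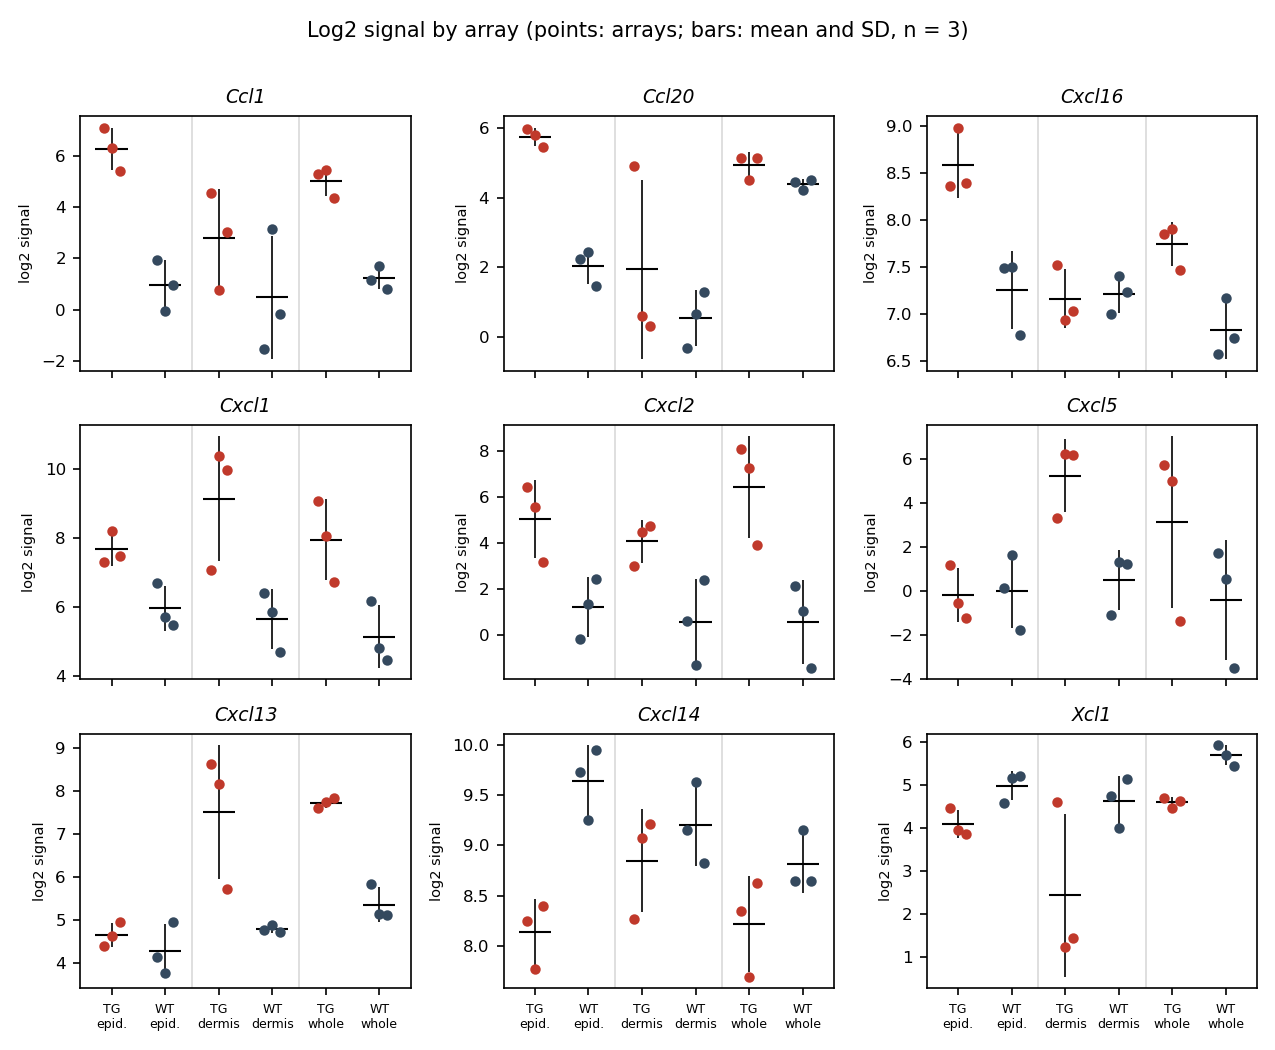
Log2 signal of 9 chemokine genes in each array (points, TG red and WT dark), with the mean and SD of 3 arrays, in epidermis, dermis and whole skin. Cxcl1 and Cxcl2 lie higher in TG in all 3 tissues, Cxcl13 in dermis and whole skin, and Ccl1 and Cxcl16 in epidermis and whole skin.

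Cxcl13, the ligand of Cxcr5 that organises B cells, had the smallest adjusted p of the family in whole skin. It was at 7.59, 7.72 and 7.82 in TG whole skin, against 5.82, 5.13 and 5.10 in WT whole skin. The groups were wide apart relative to their spread, and Cxcl13 rose by 2.36 ± 0.20 (adjusted p = 0.00143). Its other probe set rose by 3.43 (adjusted p = 0.000125) in the fit of every probe set. In dermis it was at 8.62, 8.15 and 5.72 in TG and 4.75, 4.88 and 4.71 in WT. The groups did not overlap there (2.72 ± 0.61, adjusted p = 0.190), and without TG dermis replicate 3, the lowest TG array, the difference was 3.61 with adjusted p = 0.00534. Only this 1 of the 6 arrays left out in turn gave a call. The other probe set overlapped in dermis, at 8.44, 6.75 and 3.10 in TG and 3.21, 4.03 and 3.39 in WT (2.55 ± 1.06, adjusted p = 0.922 in the fit of every probe set). In epidermis the main probe set averaged 4.65 ± 0.28 in TG and 4.28 ± 0.61 in WT (SD, n = 3 each), with overlapping arrays. Of 5 B cell markers on the arrays, Cd22 alone passed the filter. It was at 3.41, 3.87 and 3.87 in TG whole skin, against 2.70, 2.16 and 2.23 in WT whole skin, apart but not called (1.35 ± 0.39, adjusted p = 0.116). Cd79b also lay apart there, at 4.01, 4.13 and 3.36 in TG and 3.14, 2.78 and 2.67 in WT. The summed signal of the 5 ran from 4.80 to 5.21 in TG whole skin and 3.79 to 4.63 in WT whole skin, without overlap, and its part in the Cxcl13 difference was not tested. Cd79a reached at most 4.33 and Cxcr5 at most 1.55 in any array.

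Other ligands of lymphoid homing showed layer rather than genotype calls. The probe set annotated to the Ccl21a, Ccl21b, Ccl21c and Ccl21d copies was at 9.10, 10.16 and 9.53 in WT dermis, against 7.37, 7.47 and 6.70 in WT epidermis (2.42 ± 0.58, adjusted p = 0.014 in the fit of every probe set). The probe set annotated to Ccl19 and its copies was at 6.5, 6.17 and 5.76 in WT dermis, against 3.29, 4.59 and 1.18 in WT epidermis (3.12 ± 0.71, adjusted p = 0.010). In that fit 5.52% of all probe sets were higher in WT dermis. These ligands bind Ccr7, a receptor of dendritic cells and naive T cells that leave through lymphatic vessels. Copies cannot be told apart by these probe sets. Ccl25, a ligand of Ccr9, averaged 6.37 ± 0.78 in TG dermis and 5.45 ± 0.53 in WT dermis and was not called in any comparison.

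Cxcl16, a membrane-bound ligand of Cxcr6 on T and NKT cells, was called in TG epidermis. Its arrays there were at 8.37, 8.99 and 8.40, against 7.49, 7.50 and 6.77 in WT epidermis, and it rose by 1.33 ± 0.29 (adjusted p = 0.027). In whole skin it was at 7.86, 7.91 and 7.47 in TG and 6.57, 7.17 and 6.74 in WT, and rose by 0.92 ± 0.18 (adjusted p = 0.038). In dermis it averaged 7.16 ± 0.31 in TG and 7.21 ± 0.20 in WT, with overlap. Its other probe set rose in whole skin (1.18, adjusted p = 0.011) and differed by 1.17 in epidermis (adjusted p = 0.150). The epidermis call was lost without any one of TG replicates 1, 2 and 3 and WT replicate 3 (adjusted p 0.051 to 0.130). The whole-skin call was lost without TG replicate 1 or 2 or WT replicate 1 or 3 (adjusted p 0.103 to 0.148).

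The ligands of Cxcr3 on activated T and NK cells were not called between genotypes, and they shared a direction in dermis only. Cxcl9, which interferon gamma induces, was at 5.62, 3.22 and 4.50 in TG epidermis, against 0.80, 3.18 and 0.81 in WT epidermis, just without overlap (2.85 ± 0.94, adjusted p = 0.140). Its other probe set overlapped there (0.60 ± 0.75, adjusted p = 0.743 in the fit of every probe set). Cxcl10 averaged 5.36 ± 0.46 in TG whole skin and 4.55 ± 0.39 in WT whole skin and was not called. Cxcl11, below the filter, ran the other way in epidermis, at 0.81, 1.24 and 1.45 in TG and 4.07, 2.79 and 2.54 in WT (-1.97 ± 0.68, adjusted p = 0.180 without a filter). In dermis it was at 3.69, 3.81 and 3.68 in TG and 2.51, 3.26 and 2.74 in WT (0.89 ± 0.68). Cxcl9 and Cxcl10 were also higher in TG dermis (1.87 ± 0.94 and 0.57 ± 0.47, adjusted p = 0.965 and 0.994). In whole skin Cxcl9 differed by 1.31 (adjusted p = 0.215) and Cxcl11 by -0.59 (adjusted p = 0.638 without a filter). Ccl5, made by activated T cells, was higher in WT dermis, at 4.34, 4.93 and 5.60, than in WT epidermis, at 1.31, 2.60 and 3.60 (2.45 ± 0.69, adjusted p = 0.024). Its TG epidermis arrays of 5.85, 4.78 and 3.35 overlapped those of WT epidermis (2.15 ± 0.69, adjusted p = 0.123). The layer call of Ccl5 was lost without WT dermis replicate 2 or 3 or WT epidermis replicate 1 (adjusted p 0.065 to 0.111).

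Among ligands of skin-homing and type 2 T cells, Ccl1 showed the largest epidermal difference of the 33 genes. It binds Ccr8, was below the filter over all arrays, and was named after its values were seen. It was at 7.08, 6.30 and 5.41 in TG epidermis, against 1.92, -0.04 and 0.96 in WT epidermis, far apart. It rose by 5.32 ± 1.17 (adjusted p = 0.030) in the fit without a filter, in which 1.10% of all genes rose. In whole skin it was at 5.30, 5.44 and 4.35 in TG and 1.18, 1.70 and 0.82 in WT, and rose by 3.80 ± 0.46 (adjusted p = 0.00608). In dermis it was at 4.57, 0.75 and 3.03 in TG and -1.54, 3.13 and -0.16 in WT, with overlap. With 16 added and no filter, Ccl1 kept both calls at smaller differences, 2.38 in epidermis (adjusted p = 0.00354) and 1.42 in whole skin (adjusted p = 0.017). Without any one array, the whole-skin call was kept (adjusted p 0.00832 to 0.046) and the epidermis call was lost at differences of 4.82 to 5.80 (adjusted p 0.055 to 0.162). Ccr8 itself reached at most 2.52 in any array.

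Ccl8, a monocyte ligand that in mouse also binds Ccr8, was chiefly dermal. It was at 9.30, 10.29 and 10.01 in WT dermis, against 7.01, 7.56 and 5.46 in WT epidermis, and was higher in dermis by 3.19 ± 0.50 (adjusted p = 0.000818). In whole skin it was at 10.68, 10.64 and 10.66 in TG and 10.18, 10.38 and 10.31 in WT. The rise of 0.37 ± 0.07 (adjusted p = 0.038) was small and rested on 3 nearly equal TG arrays. That call was lost without any one of TG replicates 1, 2 and 3 and WT replicates 1 and 3 (adjusted p 0.073 to 0.145).

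The Ccr4 ligands Ccl17 and Ccl22 went opposite ways in epidermis. Ccl17 was at 4.25, 2.75 and 2.92 in TG and 5.18, 5.0 and 4.59 in WT (-1.61 ± 0.54, adjusted p = 0.147). Ccl22 was at 6.98, 6.85 and 6.39 in TG and 3.84, 5.98 and 5.63 in WT (1.59 ± 0.64, adjusted p = 0.228). Neither pair of groups overlapped and neither passed the test. Ccl28, an epithelial Ccr10 ligand, was at 0.82, 3.67 and 4.74 in TG epidermis and 5.56, 4.86 and 5.75 in WT epidermis (-2.31 ± 0.88, adjusted p = 0.208), apart but not called.

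Ccl27a, the keratinocyte ligand of Ccr10, showed no call. Its single-symbol probe set was at 5.65, 3.86 and 5.99 in TG epidermis, against 6.90, 5.86 and 5.54 in WT epidermis (-0.93 ± 0.52, adjusted p = 0.372), and averaged 5.81 ± 0.37 in TG whole skin and 5.83 ± 0.44 in WT whole skin. This probe set may also hybridise with the near-identical Ccl27b. A brighter probe set annotated to Ccl27a, Ccl27b and other copies was at 10.82, 10.34 and 10.59 in TG epidermis and 10.77, 10.25 and 9.43 in WT epidermis. In dermis it was at 9.47, 8.09 and 8.77 in TG and 9.73, 9.97 and 9.33 in WT (-0.90 ± 0.37, adjusted p = 0.922).

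Ccl20, the Ccr6 ligand by which epithelium draws Langerhans cell precursors and Th17 cells, was at 5.99, 5.81 and 5.46 in TG epidermis and 2.25, 2.43 and 1.46 in WT epidermis. The groups were far apart, but the difference of 3.70 ± 1.09 was not called (adjusted p = 0.097). It passed with 16 added (1.79, adjusted p = 0.00737), in the 6 epidermis arrays alone (adjusted p = 0.00969) and in a fit of all 18 arrays (adjusted p = 0.015). In all it passed under 5 of 17 alternatives and under none of the 6 that left out an array, with adjusted p from 0.00737 to 0.313. Ccl20 averaged 3.27 over the 18 arrays, just above the filter at 3.15. It passed that filter only through groups where it was high, TG epidermis (mean 5.75) among them, so no conclusion is drawn from the alternatives. In TG dermis it was at 4.92, 0.61 and 0.30, against -0.32, 0.66 and 1.30 in WT dermis, so replicate 1 alone was high. In whole skin it was at 5.15, 4.51 and 5.16 in TG and 4.45, 4.22 and 4.51 in WT, the lowest TG array barely above the highest WT array, and was not called (0.55 ± 0.25, adjusted p = 0.296). Both WT layers read below WT whole skin, and no test was made across them.

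Xcl1, made by T and NK cells for Xcr1-bearing dendritic cells, was the one member called lower in whole skin. It was at 4.71, 4.46 and 4.63 in TG and 5.93, 5.71 and 5.46 in WT, and fell by 1.10 ± 0.20 on the log2 scale (adjusted p = 0.024). In dermis it was at 4.62, 1.22 and 1.44 in TG and 4.74, 3.99 and 5.15 in WT (-2.20 ± 0.77, adjusted p = 0.799). Without TG dermis replicate 1, which lay with the WT arrays, the dermal difference was -3.29 with adjusted p = 0.023. Only this 1 of the 6 arrays left out in turn gave Xcl1 a dermal call. In epidermis it was at 4.46, 3.96 and 3.86 in TG and 4.59, 5.16 and 5.22 in WT, without overlap (adjusted p = 0.563). The whole-skin call was lost without TG replicate 1 or 2 or WT replicate 1 or 2 (adjusted p 0.068 to 0.111).

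Ligands of monocytes and macrophages were higher in dermis or did not pass. Ccl9, a rodent ligand of Ccr1, was at 8.16, 8.83 and 9.05 in WT dermis and 5.70, 6.28 and 4.84 in WT epidermis. It was higher in dermis by 3.07 ± 0.45 (adjusted p = 0.000501). Its dimmer probe set was at 2.48, 4.35 and 3.77 in WT dermis and 1.72, 1.75 and 4.23 in WT epidermis, with overlap (0.97 ± 0.77, adjusted p = 0.455 in the fit of every probe set). Ccl6, its close relative, was at 7.22, 6.47 and 7.09 in WT dermis and 6.40, 5.43 and 5.97 in WT epidermis, apart but short of the threshold (1.0 ± 0.34, adjusted p = 0.054). Between genotypes, Ccl12, a mouse ligand of Ccr2, was at 5.87, 5.39 and 5.52 in TG dermis and 0.38, 4.74 and 3.89 in WT dermis (2.59 ± 1.13, adjusted p = 0.932). Ccl2, the main Ccr2 ligand, was at 5.35, 5.32 and 4.89 in TG epidermis and 1.39, 4.86 and 1.83 in WT epidermis (2.49 ± 0.86, adjusted p = 0.156). Without WT epidermis replicate 2, the highest WT array, its difference was 3.58 with adjusted p = 0.020. Only this 1 of the 6 arrays left out in turn gave Ccl2 a call in epidermis. Macrophage markers shared the layer pattern, 5 of 10 being higher in WT dermis. Between genotypes 1 of the 10, C1qc, was called, in epidermis (2.82, adjusted p = 0.013), and its part in the Ccl2 values was not tested.

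Of the eosinophil ligands of Ccr3, Ccl11 (eotaxin) was at 6.66, 7.0 and 6.21 in WT dermis and 4.85, 5.01 and 4.70 in WT epidermis. It was higher in dermis by 1.77 ± 0.47 (adjusted p = 0.018), a call lost without WT dermis replicate 1 or 2 or WT epidermis replicate 3 (adjusted p 0.054 to 0.075). In TG epidermis it was at 2.42, 4.11 and 3.27, below all WT epidermis arrays and short of the threshold (-1.59 ± 0.47, adjusted p = 0.096). Ccl24 was not called in any comparison.

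Cxcl12, the stromal ligand of Cxcr4, was dermal. Its main probe set was at 7.98, 7.90 and 8.36 in WT dermis and 6.66, 5.38 and 4.16 in WT epidermis, higher in dermis by 2.68 ± 0.49 (adjusted p = 0.00219). In TG dermis it was at 9.72, 9.35 and 9.58, above all WT dermis arrays (1.47 ± 0.49, adjusted p = 0.730). Another probe set of Cxcl12 disagreed there, with 8.86, 7.78 and 6.28 in TG dermis and 8.01, 8.88 and 8.55 in WT dermis (-0.85 ± 0.72, adjusted p = 1.0), so no genotype direction holds for this gene in dermis. In whole skin the same pair gave 0.57 and -0.27, neither called. In epidermis the main probe set differed by 0.25, and the other was at 6.5, 5.43 and 6.26 in TG and 1.72, 5.17 and 2.63 in WT, without overlap (2.89 ± 0.72, adjusted p = 0.075).

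Cxcl14, a chemokine that keratinocytes make constitutively, fell in TG epidermis. It was at 8.25, 7.77 and 8.40 in TG epidermis and 9.72, 9.25 and 9.94 in WT epidermis, and fell by 1.5 ± 0.31 on the log2 scale (adjusted p = 0.022). Its other probe set overlapped between the groups (-0.70 ± 0.40, adjusted p = 0.449). In whole skin it was at 8.35, 7.69 and 8.62 in TG and 8.65, 9.15 and 8.65 in WT, just without overlap (-0.60 ± 0.23, adjusted p = 0.228). The epidermis call was lost without TG replicate 1 or 2 or WT replicate 1 or 3 (adjusted p 0.073 to 0.111). Cxcl17, a mucosal chemokine, was not called in any comparison.

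**Figure D3:**
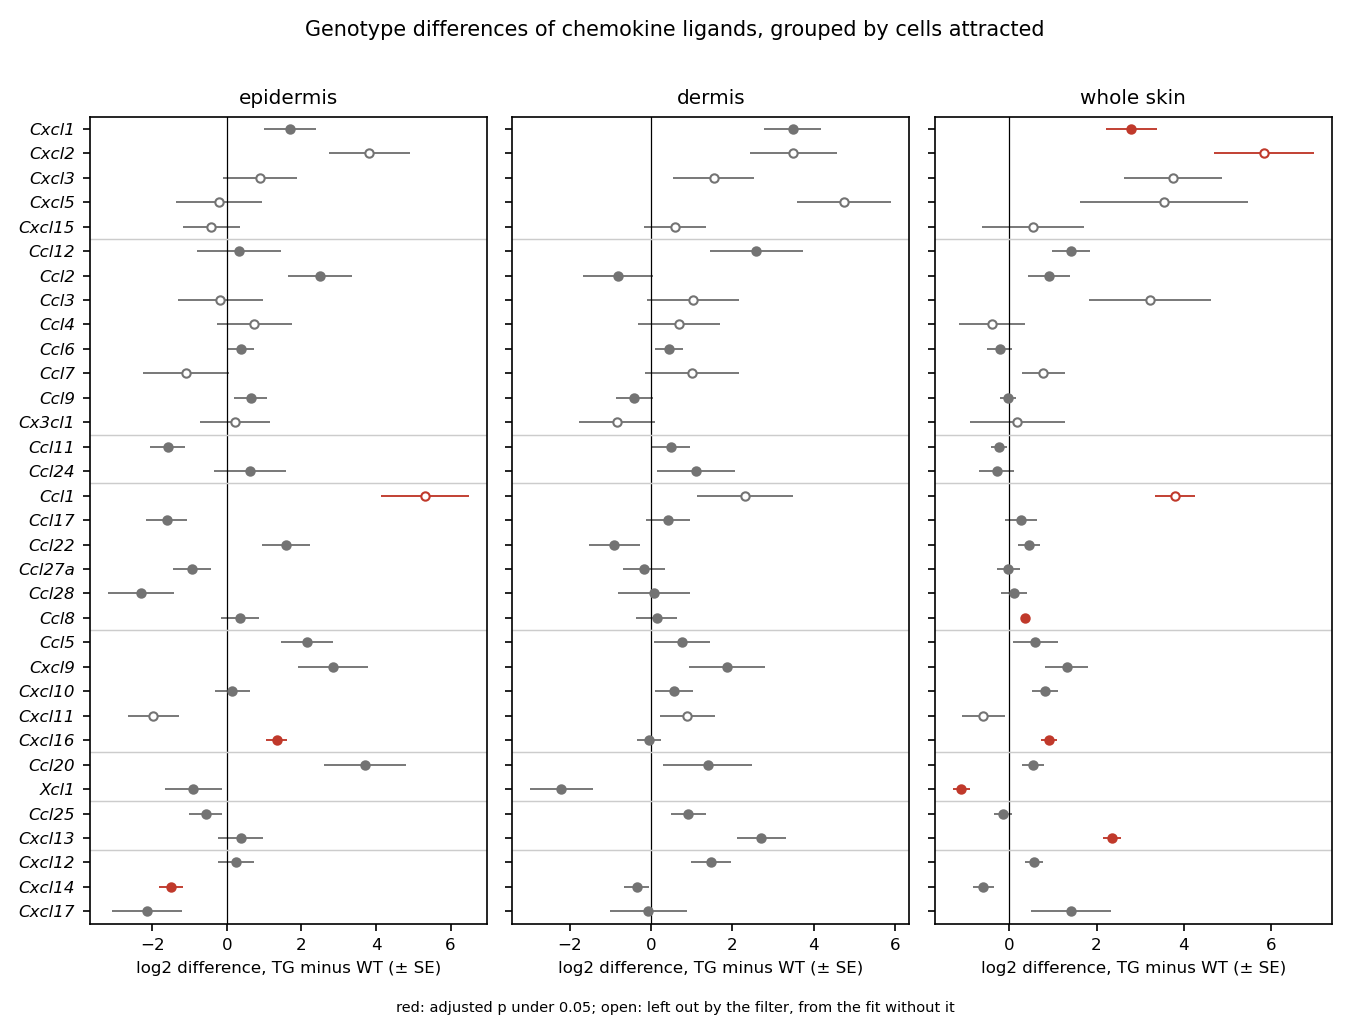
TG minus WT log2 difference with its SE for 33 chemokine genes in epidermis, dermis and whole skin, in rows grouped by the cells attracted. Red marks an adjusted p under 0.05 and open symbols are genes left out by the filter. No gene is red in dermis, whereas Ccl1, Cxcl16 and Cxcl14 are red in epidermis.

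Grouped by the layer in which they were higher in WT skin, 5 tested members were dermal (Ccl8, Ccl9, Cxcl12, Ccl5 and Ccl11), 0 were epidermal and 18 were neither. Of the 18, Ccl17 and Ccl20 had every WT dermis array below every WT epidermis array without a call. The dermal members' median log2 difference between genotypes was 0.35 in epidermis and 0.49 in dermis, and 0.37 in whole skin. For the 18 others the medians were 0.35 in epidermis and 0.43 in dermis, and 0.50 in whole skin. The grouping used the WT layer arrays that are also the baseline of both layer differences. The layer medians of the groups are therefore not independent of the grouping, and no conclusion is drawn from them. Of the genotype calls in whole skin, 1 (Ccl8) belonged to the dermal members and 4 to the others, and both calls in epidermis belonged to the others.

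**Figure D4:**
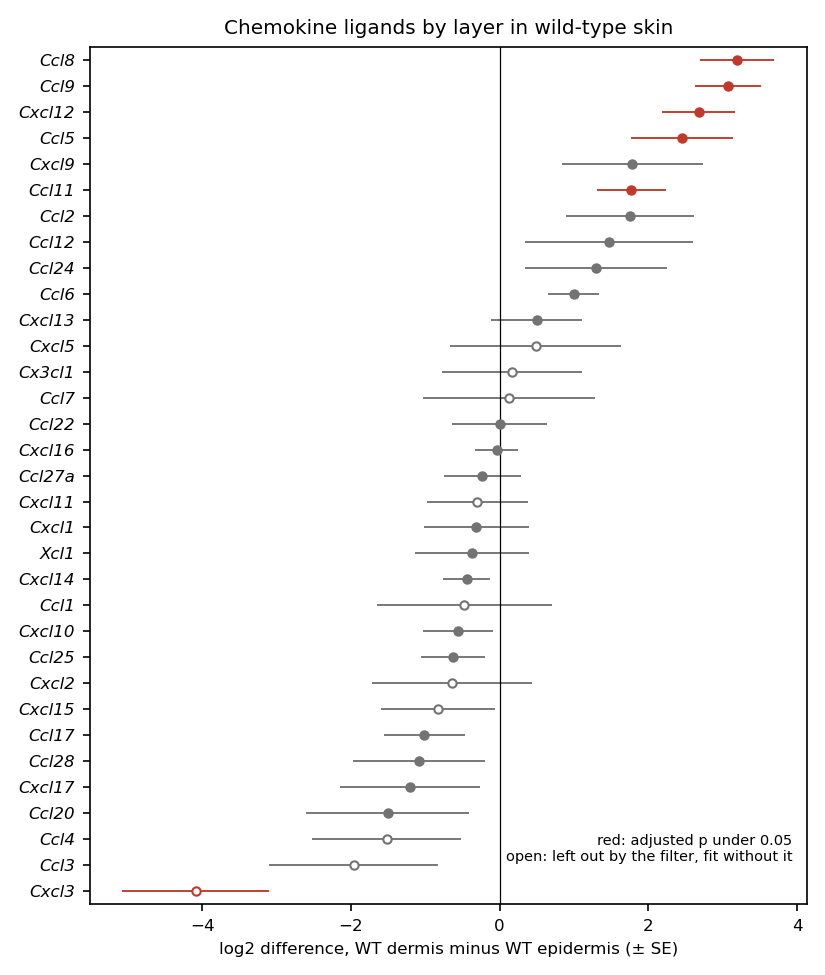
WT dermis minus WT epidermis log2 difference with its SE for 33 chemokine genes in order of size. Red marks an adjusted p under 0.05 and open symbols are genes left out by the filter. Ccl8, Ccl9, Cxcl12, Ccl5 and Ccl11 are red above 0 and Cxcl3 is red below 0.

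Whether a genotype effect differed between dermis and epidermis was tested as a difference of differences. None of the 23 members passed in limma, against 0.0218% of all genes higher and 0% lower. At an unadjusted p under 0.05 there were 8 members, and 8.01% of all genes. The smallest p was that of Cxcl16, whose effect in dermis minus that in epidermis was -1.38 ± 0.41 (adjusted p = 0.431). The Cxcl13 value was 2.35 ± 0.86 (adjusted p = 0.536) and for Ccl2 -3.31 ± 1.21 (adjusted p = 0.536). Genotype effects of single members were therefore not shown to differ between the layers.

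Receptors were read from a list of 16 on the arrays, of which 10 passed the filter. Between WT layers 1 was called, Ccr2, higher in dermis (1.88, adjusted p = 0.00584). Between genotypes 2 were called, both higher in TG whole skin. Ccr7 was at 4.8, 4.6 and 4.2 in TG whole skin and 1.9, 3.4 and 2.1 in WT whole skin (2.09 ± 0.44, adjusted p = 0.047). Cxcr4, the receptor of Cxcl12, differed by 0.80 ± 0.17 (adjusted p = 0.049). None was called in separated epidermis or dermis, where 3 and 0 had an unadjusted p under 0.05. Over all genes 5.29% did in dermis, and the share in epidermis was not counted. Cxcr2 was at 5.5, 5.4 and 5.8 in TG epidermis and 6.8, 3.3 and 3.8 in WT epidermis, so its groups overlapped.

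Atypical receptors bind chemokines without classical signalling, and some of these receptors remove them. Of 5 tested, Ackr1 was higher in WT dermis (1.55, adjusted p = 0.032), Ackr4 fell by 1.23 in TG epidermis (adjusted p = 0.047), and Ackr2 and Ackr3 fell by 1.05 and 0.64 in TG whole skin (adjusted p = 0.015 and 0.010). Of chemokines under other symbols, Pf4 was higher in WT dermis (3.08, adjusted p = 0.000818). Cklf was higher in WT dermis (1.05, adjusted p = 0.031) and rose in TG epidermis (1.33, adjusted p = 0.037). Of 12 tested genes of the NF-kappa-B and IL-17 axis, 3 were lower in WT dermis than in WT epidermis (Rel, Il17rc and Il1a) and 0 were called between genotypes, with 0, 1 and 5 at an unadjusted p under 0.05 in epidermis, dermis and whole skin. The genotypes lay apart for 1, 2 and 7 of the 12, against 23.0%, 9.24% and 24.3% of all genes. Of all 15 on the arrays, tested or not, 10 lay apart as higher in TG whole skin and 0 as lower. No matching share of all genes was taken for that count, so no conclusion is drawn from it. An unadjusted p under 0.05 was reached by 5.29% of all genes in dermis, and the shares in epidermis and whole skin were not counted.

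T cell markers differed between WT layers, Cd4 being higher in dermis (3.24, adjusted p = 0.00485) and Cd3e and Cd3d lower (-2.11 and -1.48, adjusted p = 0.0010 and 0.021). None of 6 was called between genotypes in limma, with 2, 2 and 3 at an unadjusted p under 0.05 in epidermis, dermis and whole skin. Over all genes 5.29% reached it in dermis, and the shares in epidermis and whole skin were not counted. Of 9 Langerhans and dendritic cell markers 1 was called between genotypes, Itgax in TG whole skin (1.17, adjusted p = 0.010). Of 6 mast cell and eosinophil markers 4 were higher in WT dermis and 0 were called between genotypes. Of 10 fibroblast markers, Pdgfrb rose in TG epidermis (2.48, adjusted p = 0.00441) and Lum fell by 0.53 in TG whole skin (adjusted p = 0.033). In epidermis 8 of the 10 were higher in TG and 6 had an unadjusted p under 0.05, with a median log2 difference of 0.83 against -0.10 for all genes. The share of all genes at that p was not counted in epidermis, so the count of 6 cannot be weighed. The summed signal of the 10 fibroblast markers ran from 13.23 to 13.76 in TG epidermis and 12.06 to 13.22 in WT epidermis, just without overlap. Of 9 keratinocyte markers, Krt15 fell by 3.66 in TG epidermis (adjusted p = 0.000145). The part of these cell types in the chemokine values was not tested.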

How the data were processed

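The authors deposited 1 table of MAS5 signals, per the submitters' processing notes, and its values are on the log2 scale, from -7.52 to 14.42, with 2.81% to 9.36% of an array's probe sets below 0. A global scaling of the arrays is visible in the values (2% trimmed linear means of 98.9 to 99.5). No 2 of the 18 arrays were identical. Per gene, the probe set with 1 symbol and the highest mean was kept, and genes with a mean above the 30th percentile (3.15) were tested. Group means were fitted with limma 3.58.1 in R 4.3.3 (lmFit, eBayes with trend), on the 12 arrays of separated layers (8 residual degrees of freedom) and on the 6 whole-skin arrays alone (4), with Benjamini-Hochberg adjustment over 13739 genes. The script was tested on simulated data. Array number limits the precision. Alternatives were other array sets, weights, scalings, 16 added, no filter, other probe-set rules, a replicate block and leaving out each array. Members called in a comparison, and Ccl20, Cxcl1, Cxcl2, Cxcl12, Cxcl14 and the Ccl27 copies, were set to be given by array, and others were named after their values were seen. Members and lists were chosen with earlier results of these data known. Promoters came from RefSeq on GRCm38.p6. Gene symbols came from the platform annotation.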

Additional observations from a re-analysis of the deposited data

Results flagged for a closer look

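Cxcl11 lay on opposite sides in the layers. All 3 TG epidermis arrays (0.81, 1.24 and 1.45) were below all 3 WT epidermis arrays (4.07, 2.79 and 2.54), and all 3 TG dermis arrays (3.69, 3.81 and 3.68) were above all 3 WT dermis arrays (2.51, 3.26 and 2.74). The TG minus WT difference was 0.89 in dermis and -1.97 in epidermis. The effect in dermis minus that in epidermis was 2.86 ± 0.96 (unadjusted p = 0.0093, limma adjusted p = 0.537 without a filter), so the layers were not shown to differ. Cxcl11 was below the filter, and its other probe set overlapped between genotypes in both layers.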

How the results depend on the processing

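No called member or count changed direction. Between WT layers 5 members were called. With every probe set tested on its own, 9 probe sets were called, with Cxcl12 among them more than once and Cxcl3 lower in dermis. Leaving out 1 array gave 4 to 6. In epidermis the count of 2 became 5 with all 18 arrays in 1 fit, 4 with the 6 epidermis arrays alone, 4 with 16 added and no filter (chosen after seeing the data), and 1 with probe sets averaged. It was 0 to 3 with 1 array left out. In dermis the count of 0 became 1 (Cxcl13, adjusted p = 0.034) with all 18 arrays and 0 to 2 with 1 left out. In whole skin the count of 5 became 0 with all 18 arrays, 3 with weights by tissue, 3 with probe sets averaged, 2 with 16 added and no filter, and 1 to 4 with 1 array left out. The difference between layers gave 0 throughout. The labels do not say whether same-numbered arrays are paired, and the correlations of their deviations do not settle it. Same-number deviations correlated at -0.07 to 0.02 between WT layers and -0.04 to 0.40 between TG layers. Different-number ones correlated at -0.22 to 0.23 and -0.37 to 0.25. Between genotypes the same-number values were -0.34 to 0.04 in epidermis, -0.32 to -0.10 in dermis and -0.16 to 0.13 in whole skin. With the replicate block 6 members were called between layers, 0 in epidermis, 0 in dermis, 0 for the difference and 3 in whole skin. Over all genes, the counts of 2559, 364, 16, 3 and 384 (layers, epidermis, dermis, difference, whole skin) became 4035, 1044, 38, 42 and 37 with all 18 arrays. The block gave 2830, 103, 7, 1 and 251. Ccl8, Ccl9 and Cxcl12 between layers passed under all 17 alternatives, Cxcl13 in whole skin under 15 of 16, Cxcl16 under 10 of 16, Xcl1 under 8, Cxcl1 under 6 and Ccl8 under 4. In epidermis Cxcl16 passed under 12 of 17 and Cxcl14 under 10. The cause was not tested where the array set changed a call. Signals below the filter limit what can be said of 10 members.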

Other observations

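Ccl20 read 4.45, 4.22 and 4.51 in WT whole skin, above its highest values in either separated WT layer, 1.30 in dermis and 2.43 in epidermis. Cxcl17 ran the other way, at 2.35, -0.81 and 1.97 in WT whole skin against 3.79, 4.47 and 3.44 in WT dermis and 6.53, 3.02 and 5.76 in WT epidermis.

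In TG dermis the arrays did not agree on which chemokines were high. Replicate 1 had the highest Ccl20, Ccl1 and Xcl1 of the 3 (4.92, 4.57 and 4.62) and the lowest Cxcl1 and Cxcl5 (7.06 and 3.32), whereas replicate 3 had the lowest Cxcl13 (5.72).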
